A study of Mus musculus with 11 samples.

Results

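The sarcoplasmic reticulum is the calcium store of muscle fibres, and 4 of its genes were followed here: Ryr1, Casq1, Srl and Sln. They were named as a group with the values of the deposited brown adipose tissue (BAT) table in view. All 4 were in the BAT table and 3 were in the liver table (Sln was not), out of 4474 different genes listed in the 2 tables together. RNA sequencing had been carried out on BAT, the fat depot that burns fuel for heat, and on liver. All mice were Adcyap1r1 flox/flox (Acypap1r1 in the sample labels), so the gene of the PACAP receptor PAC1 could be excised by Cre recombinase, and all had undergone a procedure named SEFL. An adeno-associated virus (AAV) had been injected into the preBötzinger complex (preBötC), the brainstem region that sets the breathing rhythm. In control mice it carried GFP (AAV-GFP), and in Cre mice it carried Cre recombinase (AAV-Cre). For BAT the libraries numbered 1 and 2 were control (n = 2) and those numbered 4, 5 and 6 were Cre (n = 3). For liver, 7, 8 and 9 were control (n = 3) and 10, 11 and 12 were Cre (n = 3). Age, strain, sex and the promoter driving Cre are not given in the sources used here, and Adcyap1r1 was in neither table.

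In skeletal muscle, a voltage sensor in the cell membrane opens the ryanodine receptor RYR1, through which calcium leaves the sarcoplasmic reticulum and starts contraction. Calcium is held inside the store by buffers such as calsequestrin (CASQ1) and sarcalumenin (SRL), and is pumped back by SERCA ATPases. Sarcolipin (SLN) binds SERCA and lets it use ATP without moving calcium, which releases heat in muscle.

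Each deposited value is a z-score: for every gene, the distance of a library from the mean of 6 libraries in units of that gene's SD. It shows where a library lies for that gene, and it keeps no expression level, no fold change and no sequencing depth. With 6 libraries a z-score cannot exceed 2.24. In BAT the scaling ran over 6 libraries, of which 5 are analysed here. Statements on every BAT control or Cre library cover these 5 only. The labelled tissue could not be checked from such values: of 10 brown adipocyte markers 2 were in the BAT table, Dio2 and Kcnk3, and Ucp1 was not among them. In BAT, control 1 was the highest library for 1767 of 2500 genes (70.7%), and Cre 4 the lowest for 978 (39.1%).

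For each of the 4 genes, every BAT Cre library lay below both BAT controls. The same separation held for 717 of 2500 genes (28.7%), a share that was 77% without control 2 and 6.64% with library medians subtracted, and the 4 genes had been chosen on this comparison, so no test was made of it. The mean of the 4 z-scores was 1.12 in control 1 and 1.21 in control 2, against -1.54 in Cre 4, 0.04 in Cre 5 and -0.11 in Cre 6. Cre 4 was the lowest library for each gene, whereas Cre 5 and Cre 6 lay near the middle of the scale. The further library of the scaling, read as minus the sum of the 5, also lay below both controls for each gene. It lay below Cre 5 and Cre 6 too, and above Cre 4. If it was a control, the separation would hold for none of the 4 genes. Its group is not in the sample labels, so the separation covers the 5 analysed libraries only.

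**Figure D1:**
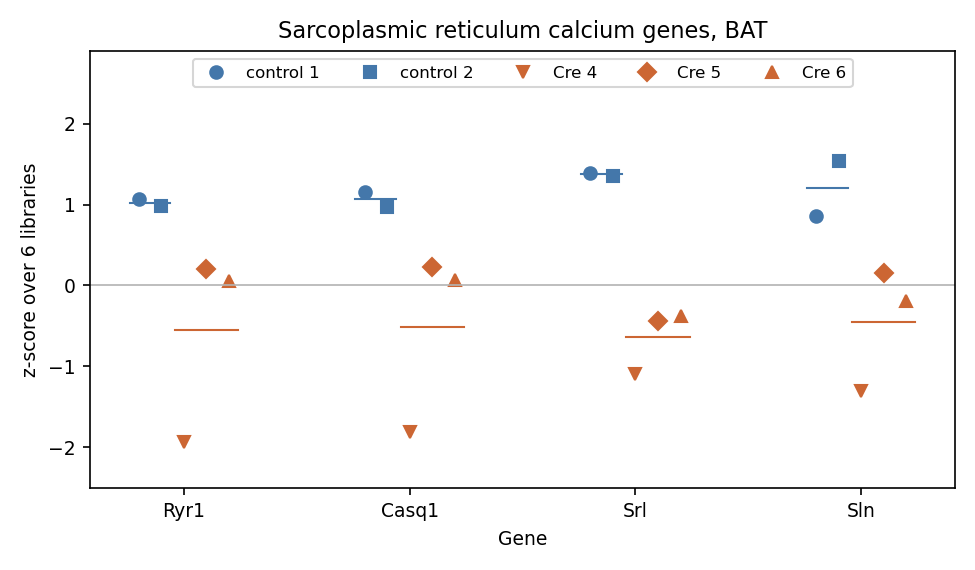
z-scores of Ryr1, Casq1, Srl and Sln (y axis, over 6 libraries) in the 5 BAT libraries, 2 control (blue) and 3 Cre (orange), with a symbol per library and a line at each group mean. All Cre points lie below both control points of their gene, and Cre 4 is the lowest point of every gene.

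Ryr1 encodes the calcium release channel. It lies on the minus strand of chromosome 7 (29003344 to 29125179, GRCm38, GENCODE release M21), with a coding sequence of 15183 bases without the stop codon in its longest annotated transcript. Its z-score was 1.06 in control 1 and 0.98 in control 2, and -1.93, 0.21 and 0.06 in Cre 4, 5 and 6. The group means were 1.02 ± 0.06 (SD, n = 2) in control and -0.56 ± 1.19 (SD, n = 3) in Cre, a difference of -1.58. The controls lay within 0.08 of each other while the Cre libraries spanned 2.14, so most of the within-group spread came from Cre 4. Without Cre 4 the difference was -0.89.

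Casq1 encodes the main calcium buffer of the store in fast muscle fibres. The gene is on the minus strand of chromosome 1 (172209894 to 172219868) and its coding sequence has 1215 bases. Controls 1 and 2 had values of 1.16 and 0.97, while Cre 4, 5 and 6 had -1.82, 0.23 and 0.06. Casq1 therefore had the pattern of Ryr1: the root mean square difference between the z-scores of the 2 genes over the 5 libraries was 0.07. Casq1 averaged 1.06 ± 0.13 (SD, n = 2) in control and -0.51 ± 1.14 (SD, n = 3) in Cre, a difference of -1.57 that became -0.92 without Cre 4.

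The promoters of Ryr1 and Casq1 are shown because sequences were at hand for them and not for Srl and Sln. Whether promoter sequence has a part in the z-score profiles was not tested. RefSeq promoter sequences (GRCm38.p6) were matched for these 2 of the 4 genes. The 250 bases before the RefSeq gene start are shown 5′ to 3′ on the gene's own strand, chr1:172219896-172220145 for Casq1 and chr7:29125152-29125401 for Ryr1, with E-boxes (CANNTG, the core motif of myogenic basic helix-loop-helix factors, which reads alike on both strands) in capitals.
Casq1: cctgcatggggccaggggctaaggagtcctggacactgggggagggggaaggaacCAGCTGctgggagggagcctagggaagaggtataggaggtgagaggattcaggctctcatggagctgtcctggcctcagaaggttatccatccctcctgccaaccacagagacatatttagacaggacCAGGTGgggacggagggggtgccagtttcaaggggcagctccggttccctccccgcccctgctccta
Ryr1: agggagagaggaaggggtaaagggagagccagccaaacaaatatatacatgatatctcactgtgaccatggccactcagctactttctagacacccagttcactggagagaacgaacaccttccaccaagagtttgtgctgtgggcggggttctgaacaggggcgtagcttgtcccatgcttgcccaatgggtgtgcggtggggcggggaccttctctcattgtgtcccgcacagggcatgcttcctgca
The RefSeq start of Ryr1 differs from the GENCODE one, so the last 28 bases of its window lie inside the gene as GENCODE annotates it. The Casq1 window held 2 E-boxes and the Ryr1 window held 0, where 66.2% of 32851 promoter windows of that length held at least 1. The first Casq1 E-box reads CAGCTG, which 13% of windows held. The second reads CAGGTG, which 17.2% of windows held on either strand. No MEF2 or CArG motif, searched on both strands, was in either window, and 2.92% and 1.47% of windows held them. A missing match says only that these letters are not in this window.

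Srl encodes sarcalumenin, a calcium-binding glycoprotein of the store's lumen, and lies on the minus strand of chromosome 16 (4480216 to 4541816), with up to 2730 coding bases. Control 1 had 1.39 and control 2 had 1.36, and Cre 4, 5 and 6 were at -1.09, -0.43 and -0.38. Here the 3 Cre libraries lay closer together, spanning 0.71 where those of Ryr1 spanned 2.14. The group means were 1.37 ± 0.02 (SD, n = 2) in control and -0.63 ± 0.39 (SD, n = 3) in Cre. Srl had the widest separation of the 4: its lowest control exceeded its highest Cre library by 1.74, against 0.77 for Ryr1, 0.74 for Casq1 and 0.70 for Sln. Among the 717 genes with this separation 6 had a wider gap than Srl. The difference between group means was -2.01, and -1.78 without Cre 4.

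Sln, on the plus strand of chromosome 9 (53850164 to 53854560), has a coding sequence of 31 codons and the stop codon, all in exon 2 of 2 (chr9:53853473-53853568, GRCm38). It is shown whole because it is so much shorter than those of the other 3 genes, with the start and stop codons in capitals.
Sln: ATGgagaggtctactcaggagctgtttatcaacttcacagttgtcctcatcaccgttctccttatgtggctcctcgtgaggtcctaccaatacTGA
Its z-score was 0.86 in control 1 and 1.54 in control 2, and -1.31, 0.16 and -0.19 in Cre 4, 5 and 6. Sln was the single member whose highest library was control 2, and its controls differed by 0.68, more than those of the other 3 genes. The group means were 1.20 ± 0.48 (SD, n = 2) in control and -0.45 ± 0.77 (SD, n = 3) in Cre, and their difference was -1.65, or -1.22 without Cre 4.

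These differences stand in a table in which most genes lay lower in Cre: the Cre mean was below the control mean for 82.5% of BAT genes, and the median difference over all 2500 was -1.29. That median rested on the controls, being 0 without control 1 and -2.27 without control 2. The authors' label on the BAT values reads BAT DOWNREGULATED CRE, and whether genes were chosen by direction is not given. Shares over all BAT genes may therefore not be those of an unselected set. Relative to the median with all libraries the differences were -0.29 for Ryr1, -0.28 for Casq1, -0.36 for Sln and -0.72 for Srl. This order depended on the libraries used. Without Cre 4 the median was -1.19, with Ryr1 (-0.89) and Casq1 (-0.92) above it and Sln (-1.22) and Srl (-1.78) below it. Without control 2 all 4 genes lay above the median, at -2.02 (Srl) to -1.31 (Sln). Without control 1 all 4 lay below it, at -1.99 (Srl) to -1.48 (Casq1). When each library's median z-score was subtracted, the median difference over all genes became -0.17. The 4 genes then still had a lower Cre mean, by -0.46 for Ryr1, -0.45 for Casq1, -0.53 for Sln and -0.89 for Srl, but the groups of all 4 overlapped. Control 1, with a median z-score of 1.80 over all genes, then had negative values for each of the 4 genes, and control 2 values between 1.38 and 1.95.

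**Figure D2:**
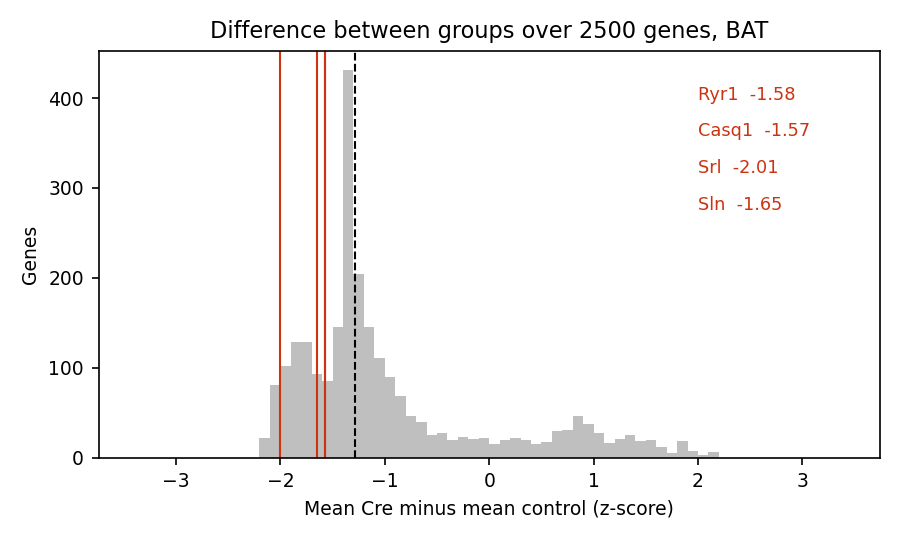
Number of BAT genes (y axis) by mean Cre minus mean control z-score (x axis) for all 2500 genes, with the median over all genes at -1.29 (dashed) and the 4 genes (red lines, values printed). Ryr1, Casq1 and Sln lie close together to the left of the median and Srl, at -2.01, near the lower end.

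The other genes of calcium handling in muscle also had lower means in Cre, although none passed the test. Of 57 further genes in 5 lists 26 were in the BAT table. All 26 had a lower Cre mean, and 24 had groups that did not overlap, the share over all genes being 28.7%. The lists were chosen with earlier results of these data known, and how the 2500 genes were chosen is not given. These counts are therefore description and no independent evidence on the 4 genes. With library medians subtracted the groups of all 26 overlapped. In the values as deposited their median difference was -1.78, where that of all genes was -1.29. This contrast depended on the controls. Without control 2 the medians were -1.84 for the 26 and -2.27 for all genes, so the 26 then lay less low. Without control 1 they were -1.66 and 0. None of the 26 was higher in all Cre libraries, which 4.36% of all genes were. By limma, fitted gene by gene with Benjamini-Hochberg adjustment over the whole table, 0 of the 26 passed the 0.05 threshold, as did 0 of 2500 genes in all (0% lower and 0% higher), and the smallest adjusted p among the 26 was 0.363. At an unadjusted p under 0.05 there were 8 of the 26, and 6 with variance moderation. Over all 2500 genes there were 262 lower and 23 higher, and 209 and 17 with moderation. The 8 became 21 without Cre 4, where 314 of 2497 genes were lower and 22 higher. Without Cre 5 it was 5 of the 26 (155 of 2488 lower, 30 higher), and without Cre 6 it was 3 (144 of 2500 lower, 21 higher). With library medians subtracted it was 0 (34 lower, 26 higher). Fits that leave 1 control are not counted here. The adjusted threshold was passed by 0 of the 26 each time. Their smallest adjusted p-values from limma then lay between 0.161 (without Cre 4) and 0.851 (with library medians subtracted).

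Around the release channel 14 of 19 listed genes were in the table, and all 14 had Cre libraries below both controls, with Cre 4 lowest. Over all 2500 genes this held for 538 (21.5%). Cacna1s, the voltage sensor that opens RYR1, averaged 1.14 ± 0.11 (SD, n = 2) in control and -0.60 ± 1.01 (SD, n = 3) in Cre. Stac3, an adaptor needed for that coupling, differed by -1.81, and Trdn, whose product triadin tethers calsequestrin to the channel, by -1.82. The junctophilin genes Jph1 and Jph2, which hold the cell membrane and the store together, differed by -1.91 and -1.70. Cav3, the caveolin of muscle, had the largest difference of the 14, at -1.99 (adjusted p = 0.371). Asph, a locus that also encodes the junctional protein junctin, had controls far apart, with an SD of 1.21, and the smallest gap of the 14, at 0.53.

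Of the storage proteins, Casq2, the calsequestrin of heart and slow fibres, differed by -1.84, and Hrc, a histidine-rich calcium-binding protein of the store, by -1.69. The pump genes differed in pattern. Atp2a1, the SERCA pump of fast fibres, averaged 1.01 ± 0.09 (SD, n = 2) in control and -0.55 ± 1.21 (SD, n = 3) in Cre. Atp2a2, the SERCA pump of slow fibres and heart that other cell types also express, averaged 1.38 ± 0.22 and -0.72 ± 0.33 in the same groups. It was the single gene of the 26 whose lowest library was Cre 5 rather than Cre 4. Pln, Mrln and Strit1, which encode further small regulators of SERCA, were not in the BAT table. Among cytosolic calcium binders, Pvalb, the parvalbumin that speeds relaxation of fast fibres, differed by -1.60. Camk2b, a calmodulin-dependent kinase, and Itpr3, a receptor channel for inositol trisphosphate, were the 2 genes with overlapping groups. Slc8a3, a sodium-calcium exchanger, differed by -2.09 with a gap of 1.71, close to that of Srl.

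**Figure D3:**
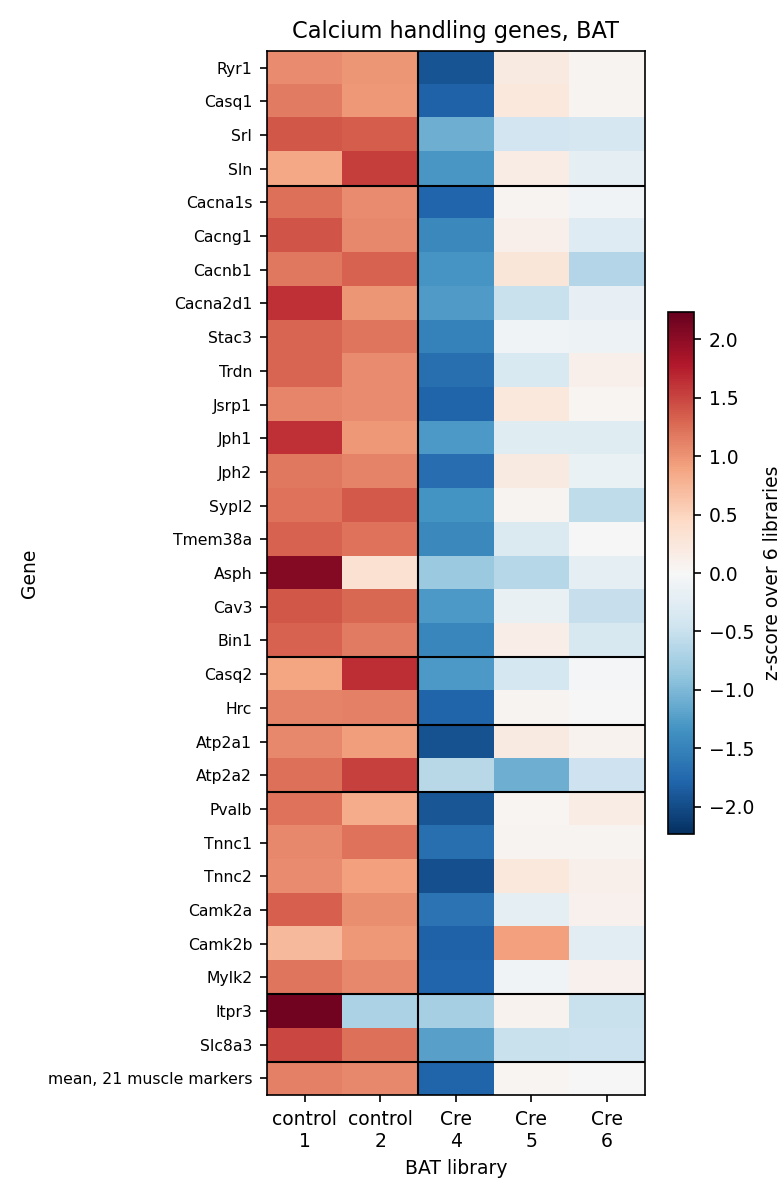
z-scores (colour, blue low and red high) of the 4 genes, the 26 further calcium handling genes by list, and the mean of 21 skeletal muscle markers (rows) in the 5 BAT libraries (columns, controls left of the vertical line). The Cre 4 column is the lowest of its row in all rows except Atp2a2, and Cre 5 and Cre 6 are near 0 in most rows.

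General skeletal muscle markers were also lowest in Cre 4 and highest in the controls on average. All 21 of 21 listed were in the BAT table (Acta1 and Ckm among them). All 21 had Cre libraries below both controls, the share over all genes being 28.7%. Like the calcium lists, the marker lists were chosen with earlier results of these data known. They averaged 1.13 and 1.07 in the 2 controls, while Cre 4, 5 and 6 had -1.80, 0.05 and 0.01. The 6 slow fibre markers averaged 1.11 and 1.24 in the controls and -1.66, -0.20 and 0.08 in Cre. Of 6 cardiac markers 2 were in the table, Myh6 and Tnni3. Cre 4, the library lowest for the 4 genes, also had the highest mean of the 4 lung epithelium markers in the table, Sftpc and Sftpb among them, at 2.20 against -0.58 to -0.30 elsewhere. Cre 6 had 1.89 for 8 hepatocyte markers, Alb and Apoa1 among them. Control 1 stood apart with 2.17 for 9 T and NK cell markers, 1.95 for 6 macrophage markers and -2.04 for 3 smooth muscle markers, and Cre minus control of these lists was -1.15, -1.13 and 1.36. The part of muscle or other tissue content in the values of the 4 genes was not tested, and in bulk tissue fewer cells of a type and less RNA per cell cannot be told apart.

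Ryr1 and Casq1 were as near to the muscle marker mean as the markers themselves, and Srl was not. Their root mean square differences from it were 0.11 and 0.10, where the markers ranged from 0.04 to 0.38 with a median of 0.10. Sln was at 0.34, inside the range of the markers, and Srl at 0.45, outside it. Over all genes the median distance was 1.08, so these are all small on that scale. For the gap between groups, 0 of the 21 markers exceeded Srl, whereas 14 exceeded Ryr1, 16 Casq1 and 19 Sln. Squares of each gene's z-scores have a fixed sum over the 6 libraries of the scaling, of which 5 are shown. A wide range among Cre libraries can therefore leave less room for a gap, and the further library takes a part that differs by gene.

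**Figure D4:**
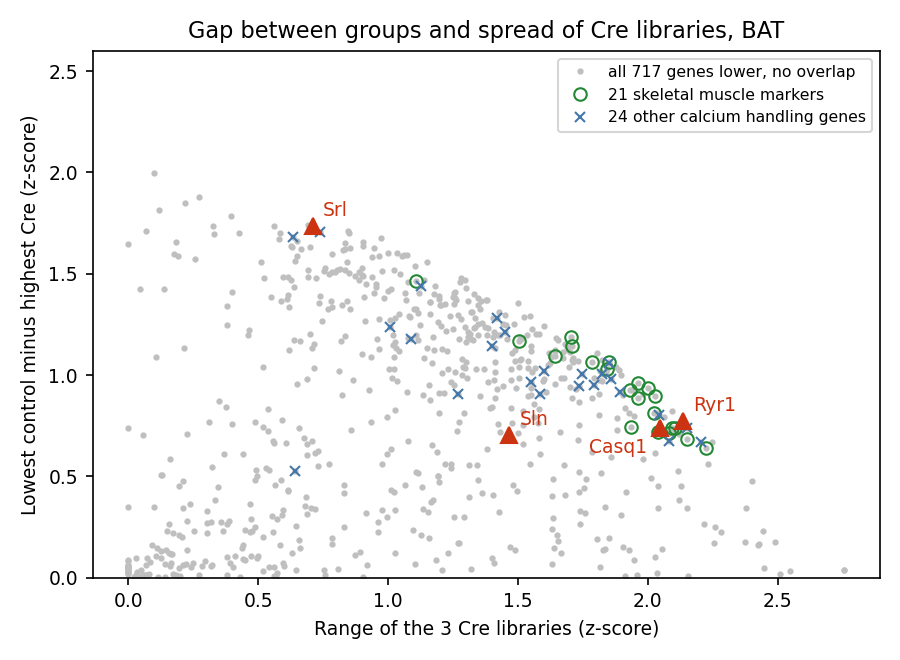
Lowest control minus highest Cre z-score (y axis) against the range of the 3 Cre libraries (x axis) for the 717 BAT genes whose Cre libraries all lay below both controls. Ryr1 and Casq1 sit among the skeletal muscle markers at ranges of 2.14 and 2.05, while Srl sits apart at a range of 0.71 and a gap of 1.74.

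The genes whose BAT pattern was nearest to each of the 4 also differed. For Ryr1 they were Eef1a2, an elongation factor isoform of muscle and neurons, Atp2a1, and Mybpc2, a myosin-binding protein of fast fibres, with root mean square differences of 0.02, 0.02 and 0.03 over 5 libraries. For Casq1 they were Mybpc2, the muscle glycogen phosphorylase Pygm, and Jsrp1, a protein of the junctional store membrane, at 0.04, 0.04 and 0.05. Srl was nearest to Arpp21, Murc, a caveolar protein of muscle, and the myosin phosphatase subunit Ppp1r12b, each at 0.08. The nearest to Sln, Tceal7, Ndrg4 and Klhl30, were further away, at 0.11 to 0.14. Pdlim3, Adamtsl4, Ppp1r27, Dusp8, Myo18b, Ldb3, Dhrs7c, Asb2 and Stac3 were among the nearest to the mean of the 4, at 0.07 to 0.10, where the median gene was at 1.05.

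In liver, Ryr1 was high in 1 library. Controls 7, 8 and 9 had -0.46, -0.11 and -0.39, while Cre 10, 11 and 12 had -0.83, -0.40 and 2.19. Apart from Cre 12 the libraries of both groups overlapped. The Cre mean was 0.32 ± 1.63 (SD, n = 3) and the control mean -0.32 ± 0.18 (SD, n = 3), and the difference of 0.64 became -0.29 without Cre 12.

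Casq1 was high in a library of each group. Controls 7, 8 and 9 were at -0.81, 1.08 and 0.12, and Cre 10, 11 and 12 at -0.64, -1.24 and 1.49. The groups overlapped, at -0.13 ± 1.43 (SD, n = 3) for Cre and 0.13 ± 0.94 (SD, n = 3) for control. The difference of -0.26 turned to 0.22 without control 8, to 0.30 without Cre 11 and to 0.34 with library medians subtracted.

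Srl was the single member whose liver groups did not overlap, and it lay higher in Cre. In controls 7, 8 and 9 it had -0.77, -1.45 and -0.23, while Cre 10, 11 and 12 had 0.46, 0.27 and 1.73. All Cre libraries were above all controls, as for 258 of 2500 liver genes (10.3%), and the lowest Cre library exceeded the highest control by 0.50. Cre libraries averaged 0.82 ± 0.79 (SD, n = 3) and controls -0.82 ± 0.61 (SD, n = 3). Their difference of 1.63 ranged from 1.18 to 1.92 when each library was left out in turn, with 1.18 without Cre 12. The rule that named the 4 genes also covered these liver columns, so no test was made.

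**Figure D5:**
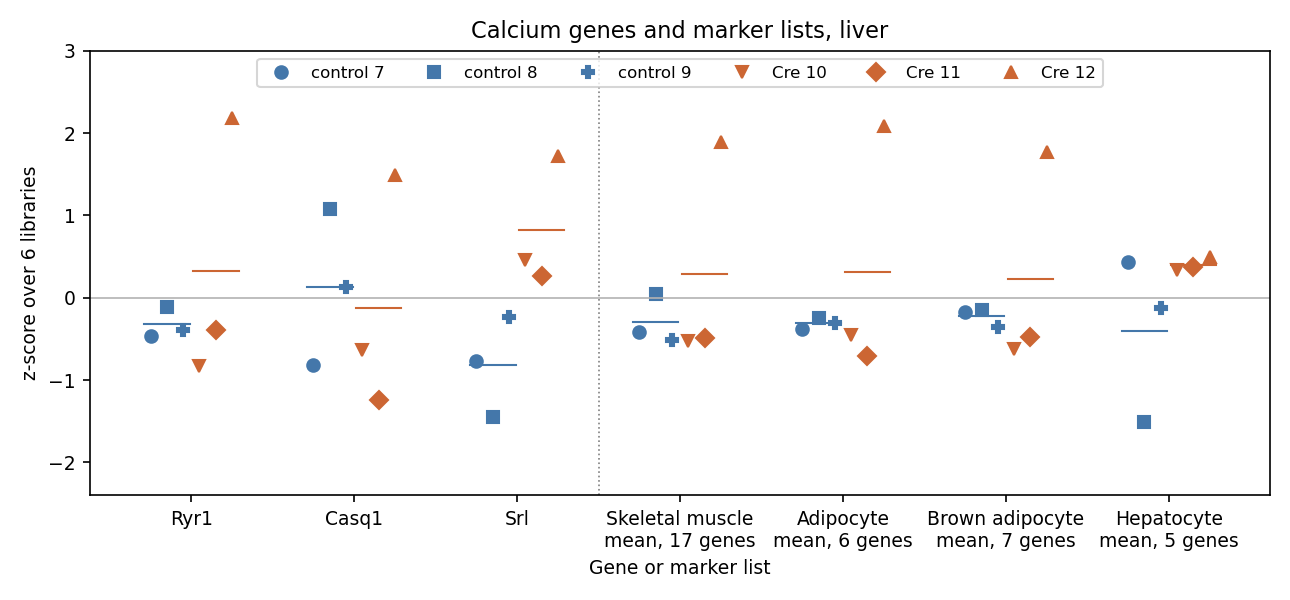
z-scores (y axis, over 6 libraries) of Ryr1, Casq1 and Srl and mean z-scores of 4 marker lists in the 6 liver libraries, 3 control (blue) and 3 Cre (orange), with a symbol per library and a line at each group mean. Cre 12 is the highest point for the 3 genes and for the muscle and adipocyte lists, and for Srl all Cre points lie above all control points.

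Markers of other tissues were high in the same liver library. In Cre 12 the mean of 17 skeletal muscle markers was 1.89, and in the other liver libraries it lay between -0.52 and 0.04. Means in Cre 12 were also 2.08 for 6 adipocyte markers and 1.77 for 7 brown adipocyte markers. Control 8, the lowest library for Srl and the second highest for Casq1, had -1.51 for 5 hepatocyte markers and 1.95 for 5 B and plasma cell markers. What these contributed to the 3 genes was not tested. Ryr1 was 0.20 from the muscle marker mean, near the median marker, at 0.20, while Casq1 was at 0.63 and Srl at 0.81. By pattern over 6 libraries the nearest genes were Gpx3, Cox8b and Myh7 for Ryr1 (0.06 to 0.10), Akr1b10 and Rasl12 for Casq1 (each 0.27), and Lamb1, Mmd2 and Idh2 for Srl (0.22 to 0.24). Nat8l, Adcy3, Pdk4, Slc36a2, Kcnk3, Otop1, Mybpc2, Ybx2, Tnni2 and Ttn were nearest to the mean of the 3, at 0.19 to 0.23.

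Of the 57 further calcium handling genes 9 were in the liver table, and in limma 0 had an adjusted p under 0.05, as did 0 of 2500 genes (0% in either direction). At an unadjusted p under 0.05 there were 0 of the 9, also with variance moderation, and the smallest adjusted p among them was 0.623. Atp2a1, Pvalb and Tnnc2, genes of fast muscle fibres, had 2.21, 2.23 and 2.23 in Cre 12 and no value above -0.11 elsewhere. Groups did not overlap for 3 of the 9 (1 lower and 2 higher), and without control 8 for 1 lower and 5 higher. Without control 8 the shares over all liver genes were 12.8% lower and 15.9% higher. Pln, the SERCA inhibitor phospholamban, averaged 0.78 ± 1.05 (SD, n = 3) in control and -0.78 ± 0.25 (SD, n = 3) in Cre. Calm3, a calmodulin gene, differed by 1.45 and Stim1, the calcium sensor of the endoplasmic reticulum, by 1.46, both with control 8 lowest at -2.09 and -2.04. Over all liver genes 12.3% were lower and 10.3% higher without overlap, and the median difference was -0.50.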

How the data were processed

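Messenger RNA was selected with poly-T beads, per the labels' protocols, which describe directional and non-directional preparation without saying which was used. Ryr1 and Casq1 overlap annotated antisense genes and Srl a pseudogene on the opposite strand, and without strand the reads of such pairs cannot be told apart. The submitters' processing notes list the tools TopHat 1.3.3 and DESeq2 1.20.0, and as genome builds GRCm38, mm10 and mm9, with no role for any of them. The authors deposited 1 score per gene and library for 2500 genes a tissue. From the values it is a z-score: squares sum to 6 in all 2500 liver rows, and in all 2500 BAT rows once minus the row sum is added as a further value, within 1e-06. How the 2500 genes were chosen, whether values were log transformed, and the depth are not given in the sources used here, so no interval from counts can be given.

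Groups came from the sample titles. The gene members, lists and tests were chosen with earlier results of these data known. Genes in the 5 calcium lists could be named, together with the 10 genes nearest to the members' mean and the 3 nearest to each member by root mean square difference, and the first 2 genes of a marker list; 2 of the nearest genes are not reported here. Cre and control were compared with limma 3.58.1 (R 4.3.3), as a two-sided gene-wise linear model with no variance moderation and Benjamini-Hochberg adjustment over each table, and the model was tested on simulated data. Genes with a residual SD under 1e-06 were not tested. Whether each library stands for 1 animal is not in the labels, and p-values then cover the spread between these samples, which may be technical. Alternatives were moderation, subtraction of library medians, removal of genes with at least 2 libraries tied at the lowest value, and leaving out each library. The 2 tissues were scaled separately and were not compared by a test. Python 3.11.15, pandas 2.3.3 and matplotlib 3.10.9 were used.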

Additional observations from a re-analysis of the deposited data

Results flagged for a closer look

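Srl lay on opposite sides in the 2 tissues: Cre minus control was -2.01 in BAT, with every Cre library below both controls, and 1.63 in liver, with every Cre library above every control. The difference between tissues was not tested, since the gene was chosen on these columns and the tables were scaled separately. The authors' labels, downregulated in Cre for BAT and upregulated in Cre for liver, cover all the values of a tissue. They do not give the direction of single genes: in liver 60.4% of 2500 genes had a lower mean in Cre. Of 526 genes in both tables, 118 were lower without overlap in BAT and 54 higher without overlap in liver. Srl was 1 of 9 genes with both, which are 7.63% of the 118 and 16.7% of the 54. Over all 526 genes 10.3% were higher without overlap in liver and 22.4% lower without overlap in BAT, so neither share exceeded that over all shared genes. A further 8 genes were lower without overlap in both tissues.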

How the results depend on the processing

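Subtracting library medians changed the mean difference of the 4 genes in BAT from -1.70 to -0.58, and leaving out each library in turn gave -1.99 to -1.20. In BAT 0 genes passed the adjusted threshold in each direction with all libraries (262 lower and 23 higher at an unadjusted p under 0.05), and 0 with moderation (209 and 17 unadjusted). In liver 0 passed in either fit (63 lower and 81 higher unadjusted, 51 and 66 with moderation). Leaving out each library gave 0 to 431 lower and 0 to 2 higher, the 431 and 2 without control 2, where the lone control 1 is assumed to vary like the Cre libraries. None of the 26 further calcium genes passed under any alternative run, nor any liver gene. Directions in liver were less stable: leaving out each library gave -0.29 to 1.22 for Ryr1, -1.07 to 0.30 for Casq1, -0.052 to 1.30 for the median of the 9 calcium genes and -0.14 to 1.24 for that of 17 muscle markers, the lowest of each without Cre 12. Casq1 turned from -0.26 to 0.34 with library medians subtracted, and the cause was not tested. No paired analysis was possible because library numbers are unique to a group. Alternatives for single genes and lists were chosen after seeing the data. Unknown depth and the z-score scale limit every value to a position among libraries.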
